A study of Mus musculus with 8 samples.

Results

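Expression of 9 genes of early lymphoid specification was followed in mouse hematopoietic stem cells after granulocyte colony-stimulating factor (G-CSF). The genes were Dntt, Il7r, Rag1, Rag2, Satb1, Ikzf1, Ebf1, Pax5 and Notch1, chosen by name from the 19938 genes with a probe set annotated to exactly 1 symbol. All 9 were measured, each by 1 probe set, and all 9 could be tested. The cells were KSL SLAM cells of bone marrow, sorted as negative for lineage markers, CD48 and CD41 and positive for c-Kit, Sca-1 and CD150. One group of mice received G-CSF at 125 mcg per kg 2 times daily under the skin for 36 h, and the other received PBS for 36 h. Both treatments had 4 samples, called independent in the design text, and each was hybridized to 1 MoGene 1.0 ST array. The design text gives 5 to 10 mice per group, which is read here as the pool behind each sample. Strain, genotype, age and sex were not given in the sources used here, and pooling means that differences between single mice were not seen.

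Blood stem cells keep genes of several lineages at low levels before any lineage is chosen, and lymphoid priming is the part of this that points to B, T and NK cells. Ikzf1 encodes Ikaros, a zinc finger factor needed for lymphoid development, and Satb1 encodes a chromatin organizer that favours lymphoid fate in early progenitors. Notch1 is the receptor that directs progenitors to the T lineage, and Il7r encodes the alpha chain of the interleukin-7 receptor, which lymphoid progenitors need to survive and divide. Ebf1 and Pax5 encode the factors that specify and then fix B cell identity. Rag1 and Rag2 encode the recombinase that cuts antigen receptor genes, and Dntt encodes terminal deoxynucleotidyl transferase (TdT), which adds bases at the cut ends. Mature lymphocytes carry lineage markers and are removed by the sort, and lymphoid-primed progenitors mostly carry CD48.

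Values are log2 of the deposited linear intensities, so a difference of 1 is a change of 2-fold. No detection call was available. As a guide to dim signal, the 1027 olfactory receptor genes on the array, which blood cells are not known to use, had mean log2 intensities with a median of 3.73 and a span of 2.36 to 5.37 between percentiles 5 and 95. Rag2, Il7r, Rag1 and Ebf1 lay inside this band in their means over the 8 arrays, and Dntt, Pax5, Notch1, Satb1 and Ikzf1 lay above it. For Dntt this mean rests mainly on G-CSF replicates 3 and 4, at 7.97 and 9.05. PBS replicates 1, 3 and 4 and G-CSF replicate 2 lay inside the band. The array of PBS replicate 3 differed from all others, with correlations to them of 0.883 to 0.903, against 0.956 to 0.977 among the others. Its values were compressed: against the mean of the other PBS arrays, the dimmer genes of the whole array were higher by a median of 0.48 and the brighter ones had a median difference of -0.27. The differences of the 9 genes and the medians of gene lists are therefore given with and without it, and those of other genes where leaving it out moved the value by over 1.5 times or changed the call. Of the genes of the sort, Kit was at 10.24 to 10.49 in G-CSF samples and 10.45 to 10.94 in PBS samples, and Slamf1, the gene of CD150, was at 6.05 to 7.16 and 5.94 to 7.24 in the same order of groups. Itga2b, the gene of CD41, was at 7.18 to 7.74 in G-CSF samples and 7.06 to 7.72 in PBS samples, and Ly6a, which encodes Sca-1, was not analysed here because no probe set was annotated to it alone. Neither Kit, Slamf1, Cd48 nor Itga2b passed the test (limma adjusted p = 0.552, 0.831, 0.578 and 0.839).

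To show the start sites of the genes that varied most together below, the promoter windows of Dntt, Notch1 and Satb1 are printed from RefSeq (GRCm38.p6), from 250 bases before to 50 bases after the start, in the direction of the gene. Capitals mark TGGGA or its reverse complement, the letters of the core that Ikaros is known to bind. Dntt lies on the plus strand with its window at chr19:41029025-41029324, Notch1 on the minus strand at chr2:26503773-26504072, and Satb1 on the minus strand at chr17:51833241-51833540, the outermost of its 5 listed starts.
Dntt: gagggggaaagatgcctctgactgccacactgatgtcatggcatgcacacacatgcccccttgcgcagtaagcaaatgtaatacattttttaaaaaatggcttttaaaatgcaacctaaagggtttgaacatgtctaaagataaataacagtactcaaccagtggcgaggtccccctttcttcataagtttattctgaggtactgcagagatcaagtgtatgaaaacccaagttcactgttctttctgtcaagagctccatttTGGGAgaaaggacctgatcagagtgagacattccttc
Notch1: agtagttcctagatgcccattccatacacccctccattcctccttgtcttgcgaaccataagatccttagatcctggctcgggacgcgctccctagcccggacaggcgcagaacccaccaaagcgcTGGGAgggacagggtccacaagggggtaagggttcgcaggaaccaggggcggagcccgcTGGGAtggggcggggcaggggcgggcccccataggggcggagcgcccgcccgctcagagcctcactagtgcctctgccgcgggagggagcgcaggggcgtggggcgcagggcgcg
Satb1: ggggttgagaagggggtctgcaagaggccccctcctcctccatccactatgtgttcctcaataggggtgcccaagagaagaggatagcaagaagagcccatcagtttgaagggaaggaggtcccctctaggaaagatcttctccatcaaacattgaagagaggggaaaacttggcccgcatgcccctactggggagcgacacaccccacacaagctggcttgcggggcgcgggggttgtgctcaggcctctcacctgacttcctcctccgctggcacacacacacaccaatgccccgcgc
The Dntt window held these letters 1 time, 13 to 17 bases after the start, and the Notch1 window held them 2 times. The Satb1 window printed here held none, and the windows at the other Satb1 starts held them 0, 3, 2 and 4 times. Searched on both strands, TGGGA stood in 61.6% of 32851 such windows of all genes, and in 8 of the 15 windows of the 9 genes, so the match is common. GTGGGAA, the letters of the Notch partner RBPJ, which contain TGGGA, stood in 6.4% of all windows and in 3 of the 15, 1 each of Rag1, Ebf1 and Satb1. Of the other letters searched, CCCNNGGG (EBF1) stood in 1 of the 15 windows and in 13.7% of all windows, CAGGTG (E2A) in 3 and 20.2%, and TTCNNNGAA (STAT) in 2 and 8.3%. TATAAA stood in 0 of the 15 windows and in 13.6% of all windows. The Dntt window was 42.3% G and C and that of Notch1 68.3%, where the middle 50% of all windows ran from 45.7% to 61.7%, with a median of 52.7%. A match of letters is a description of the sequence and not of binding.

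None of the 9 genes differed between G-CSF and PBS samples at the threshold of an adjusted p under 0.05 (limma, adjusted over all 19938 genes). Over all genes 0.0953% passed, 19 higher and 0 lower after G-CSF. At an unadjusted p under 0.05 there were 2 of the 9, Dntt and Ebf1, against 9.01% of all genes. For none of the 9 did the 4 values of one group lie apart from the 4 of the other, which held for 6.15% of all genes. The median log2 fold change of the 9 was 0.32, with 6 positive and 3 negative, beside -0.07 over all genes, of which 41.7% were positive. Without PBS replicate 3 these medians were 0.12 and -0.02. Because RNA was taken from pools of sorted cells, more cells with a transcript and more transcript per cell cannot be told apart.

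**Figure D1:**
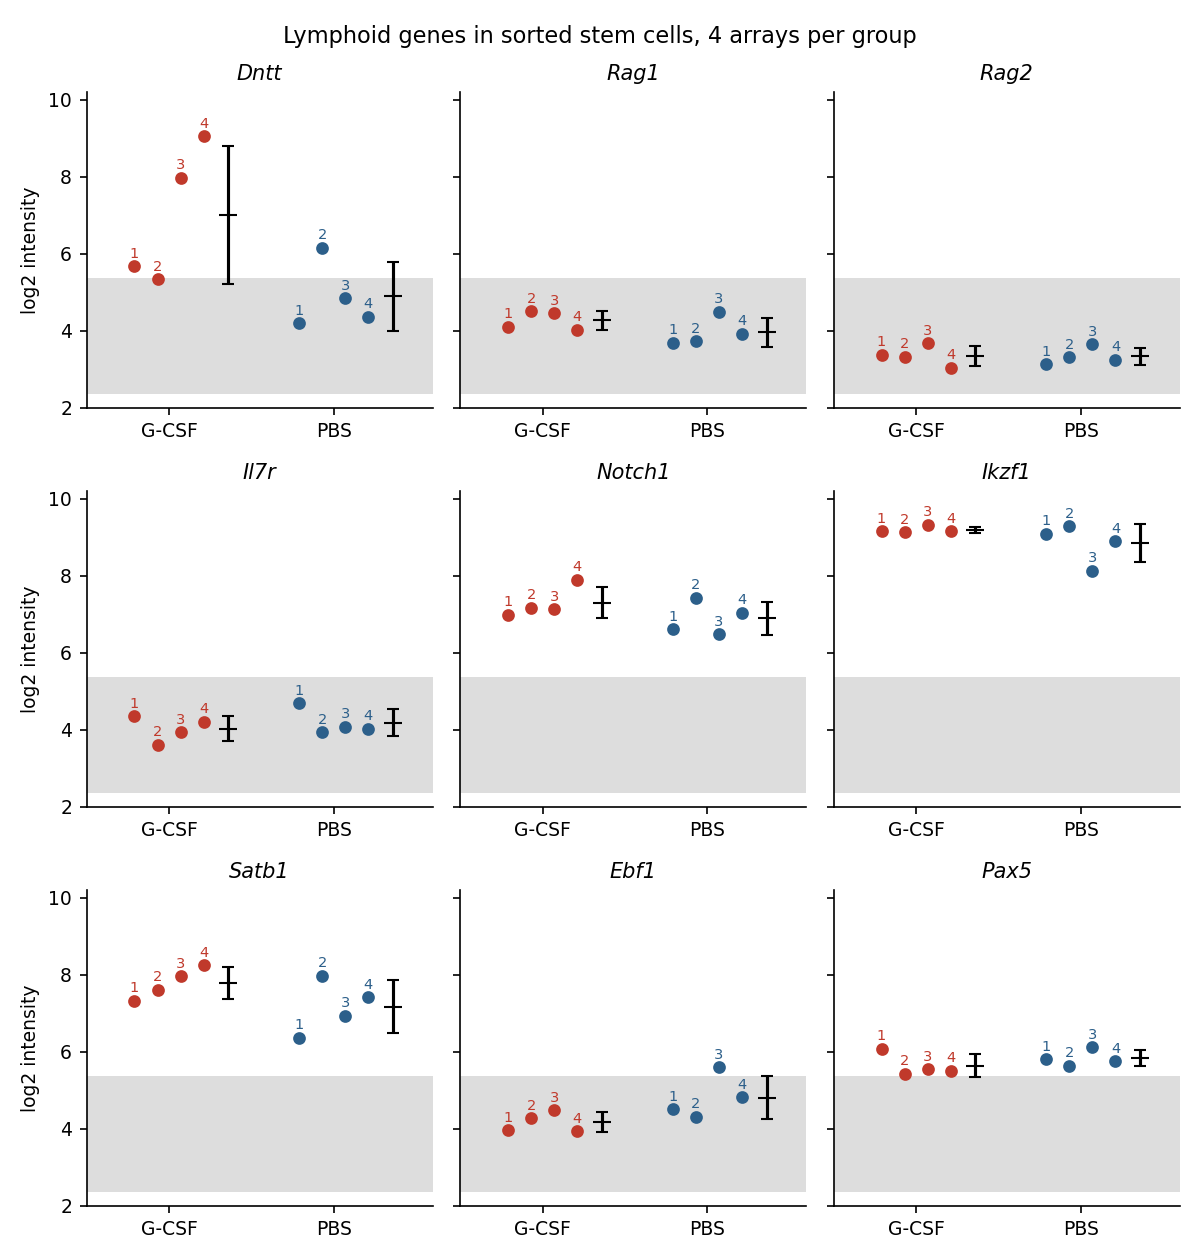
Log2 intensity of each of the 9 genes (y axis) on the 4 G-CSF arrays (red, left) and the 4 PBS arrays (blue, right). Numbers are replicates, black bars are the mean and SD of 4 arrays, and the grey band spans percentiles 5 to 95 of the mean intensity of olfactory receptor genes. Dntt had a mean of 7.01 in G-CSF samples and 4.89 in PBS samples and is the gene with the widest spread, and Rag1, Rag2 and Il7r lie inside the grey band on every array.

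Among the enzymes of antigen receptor assembly, Dntt (probe set 10463123) had the widest spread. It was at 5.68, 5.34, 7.97 and 9.05 in G-CSF replicates 1 to 4, against 4.20, 6.16, 4.84 and 4.36 in PBS replicates 1 to 4. G-CSF replicates 3 and 4 lay above every PBS sample, while replicates 1 and 2 lay below PBS replicate 2, so the groups overlapped. Dntt averaged 7.01 ± 1.80 in G-CSF samples and 4.89 ± 0.89 in PBS samples (SD, n = 4 each). In the band of dim signal lay 3 of the 4 PBS values and also G-CSF replicate 2 (5.34). The PBS level of Dntt itself is therefore uncertain, and so is the size of the difference. Its log2 fold change as measured was 2.12 ± 0.75 SE (limma adjusted p = 0.459, 95% confidence interval 0.46 to 3.77), and the exact 2-sided permutation test gave p = 0.0857, where 4 against 4 arrays can give 0.0286 at the lowest. Only 9 of the 19938 genes had a larger SD among the G-CSF arrays. Without G-CSF replicate 4 the log2 fold change was 1.44, and without PBS replicate 3 it was 2.10 (limma adjusted p = 0.537).

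The recombinase genes were dim. Rag1 (probe set 10485372) was at 4.10, 4.51, 4.45 and 4.03 in G-CSF replicates 1 to 4, against 3.69, 3.72, 4.49 and 3.92 in PBS replicates 1 to 4. All 4 G-CSF values lay above 3 of the PBS values, and PBS replicate 3 was the PBS value that overlapped them. Its log2 fold change was 0.32 ± 0.22 SE (limma adjusted p = 0.612, exact p = 0.200), and without PBS replicate 3 the groups lay apart, with 0.49 ± 0.16 SE (limma adjusted p = 0.411). Rag1 stood brighter than 65.8% of the olfactory receptor genes, so its signal was not set apart from that of genes blood cells are not known to use. Rag2 (probe set 10474105), the partner of Rag1 in the recombinase and its neighbour on chromosome 2, was at 3.04 to 3.67 in G-CSF samples and 3.13 to 3.65 in PBS samples, with a log2 fold change of 0.01 ± 0.19 SE (95% confidence interval -0.41 to 0.44, exact p = 0.914). All PBS values of Rag2 lay within the range of the G-CSF values. Without PBS replicate 3 it had 0.12 ± 0.17 SE (limma adjusted p = 0.891).

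Of the 2 receptors, Notch1 was well above the olfactory band and Il7r was inside it. Notch1 (probe set 10481056) was at 6.99, 7.17, 7.13 and 7.89 in G-CSF replicates 1 to 4, against 6.61, 7.43, 6.48 and 7.04 in PBS replicates 1 to 4. G-CSF replicate 4 was the highest of the 8 and PBS replicate 2 the next, so the groups overlapped. For Notch1 the log2 fold change was 0.40 ± 0.26 SE (limma adjusted p = 0.602, 95% confidence interval -0.17 to 0.98, exact p = 0.229), with 0.27 without PBS replicate 3 and 0.20 without G-CSF replicate 4. Il7r (probe set 10427628) was at 4.35, 3.61, 3.93 and 4.21 in G-CSF replicates 1 to 4, against 4.69, 3.93, 4.08 and 4.03 in PBS replicates 1 to 4. The highest and the lowest Il7r value were PBS replicate 1 and G-CSF replicate 2, with the others between. For Il7r it was -0.16 ± 0.23 SE (limma adjusted p = 0.770, 95% confidence interval -0.66 to 0.34) and -0.19 without PBS replicate 3, and it was 0.03 after renewed quantile normalization and 0.01 without PBS replicate 1.

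The regulators Ikzf1 and Satb1 lay above the olfactory band on every array. Ikzf1 (probe set 10374333) was at 9.16, 9.13, 9.32 and 9.15 in G-CSF replicates 1 to 4, against 9.09, 9.28, 8.13 and 8.90 in PBS replicates 1 to 4. The G-CSF samples hardly differed among themselves (SD 0.09), and the PBS spread came mainly from replicate 3, which lay 0.96 below the mean of the other PBS samples. For Ikzf1 the difference was 0.34 ± 0.24 SE (limma adjusted p = 0.613), and 0.10 ± 0.14 SE without PBS replicate 3 (95% confidence interval -0.22 to 0.42). Satb1 (probe set 10451763) was at 7.32, 7.61, 7.96 and 8.25 in G-CSF replicates 1 to 4, against 6.36, 7.97, 6.93 and 7.41 in PBS replicates 1 to 4. All 4 G-CSF values of Satb1 lay above the PBS median, but PBS replicate 2 lay above 3 of them. Satb1 had a log2 fold change of 0.62 ± 0.33 SE (limma adjusted p = 0.577, 95% confidence interval -0.11 to 1.34, exact p = 0.200), with 0.54 without PBS replicate 3 and 0.35 without PBS replicate 1.

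The B lineage factors had negative differences that did not pass. Ebf1 (probe set 10375360) was at 3.96, 4.27, 4.48 and 3.94 in G-CSF replicates 1 to 4, against 4.50, 4.31, 5.59 and 4.82 in PBS replicates 1 to 4. G-CSF replicate 3 lay above PBS replicate 2, and the other 3 G-CSF values lay below every PBS value. Ebf1 had a log2 fold change of -0.64 ± 0.27 SE (limma adjusted p = 0.532, 95% confidence interval -1.24 to -0.05, exact p = 0.0571). It was -0.38 ± 0.19 SE without PBS replicate 3 (limma adjusted p = 0.618), whose value lay 1.04 above the mean of the other PBS samples. Ebf1 was inside the olfactory band, so this is a difference between dim signals. Pax5 (probe set 10512669) was at 6.08, 5.43, 5.54 and 5.50 in G-CSF replicates 1 to 4, against 5.80, 5.64, 6.12 and 5.75 in PBS replicates 1 to 4. G-CSF replicates 2, 3 and 4 lay below every PBS value of Pax5 and G-CSF replicate 1 lay among the highest. Pax5 had a log2 fold change of -0.19 ± 0.20 SE (limma adjusted p = 0.701, 95% confidence interval -0.62 to 0.24), and -0.09 without PBS replicate 3.

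**Figure D2:**
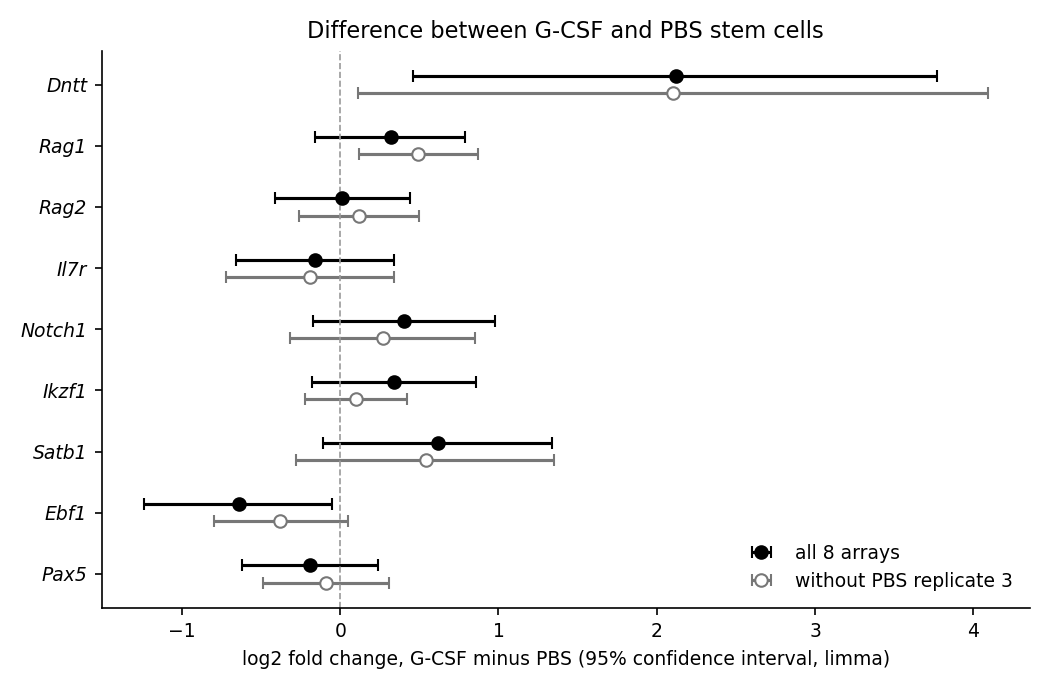
Log2 fold change of each gene, G-CSF minus PBS (x axis), with its 95% confidence interval from limma, for all 8 arrays (black) and without PBS replicate 3 (grey, open). Dntt at 2.12 has the widest interval, and the intervals of the other 8 genes lie between -1.24 and 1.34 with all arrays.

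The genes did not vary as 1 block from array to array. Across the 8 arrays Satb1 and Notch1 varied together (Pearson r = 0.89, and 0.89 without PBS replicate 3), as did Dntt with Satb1 (r = 0.82) and Dntt with Notch1 (r = 0.78). After the group means were taken out, these 3 correlations were 0.85, 0.73 and 0.70. G-CSF replicate 4 had the highest value of Dntt, Satb1 and Notch1, and PBS replicate 2 had the highest PBS value of the same 3 genes and of Ikzf1. Rag1 and Ebf1 had r = 0.30 over 8 arrays and -0.16 over the 7 without PBS replicate 3, and 0.95 over 8 arrays after the group means were taken out. Ikzf1 and Ebf1 had r = -0.87 over 8 arrays and -0.44 over the 7 without PBS replicate 3. Il7r did not follow Dntt (r = -0.18). These correlations describe 8 arrays whose points share RNA amplification and array, and they are given without a test.

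Dntt was the only one of the 9 whose values spanned 2 or more log2 units over the arrays (span 4.86). Of 16802 other named genes, the 3 most like it by Pearson r over the 8 arrays were Kif11, a mitotic spindle motor (r = 0.959), Bola1, a mitochondrial protein (r = 0.941), and Tespa1, a protein of T cell receptor signalling in thymocytes (r = 0.937). Kif11 was at 7.59, 7.75, 8.47 and 8.45 in G-CSF replicates 1 to 4, against 6.98, 7.75, 7.19 and 7.0 in PBS replicates 1 to 4. Like Dntt, it was highest in G-CSF replicates 3 and 4 and, among PBS samples, in replicate 2. None of the 3 passed the test (limma adjusted p = 0.387, 0.525 and 0.517), and the likeness was chosen as the highest among many genes on 8 arrays.

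Cd48, a gene of the sort gate, and the progenitor genes Cd34 and Flt3, which are not part of the gate, were set beside Dntt. Cd48, whose protein the gate excludes and which some but not all multipotent progenitors carry, was at 7.31, 7.24, 7.85 and 8.95 in G-CSF replicates 1 to 4. In PBS replicates 1 to 4 it was at 7.54, 7.01, 7.57 and 6.66. Its highest values were in G-CSF replicates 4 and 3, the samples with the highest Dntt, and its correlation with Dntt was 0.78 (0.69 after the group means were taken out). In PBS replicate 2, the PBS sample with the most Dntt, Cd48 was below PBS replicates 1 and 3. The other measured genes of the gate had correlations with Dntt of -0.72 (Kit), -0.07 (Slamf1) and -0.12 (Itga2b) over the 8 arrays. Cd34, which rises as stem cells become multipotent progenitors in the mouse, was at 9.84, 10.02, 10.67 and 10.98 in G-CSF replicates 1 to 4, against 9.27, 9.80, 8.68 and 10.27 in PBS replicates 1 to 4. Flt3, the receptor of lymphoid-primed progenitors, chosen after its values were seen, was at 7.87, 8.24, 9.01 and 9.43 in G-CSF replicates 1 to 4, against 6.43, 8.31, 8.03 and 8.59 in PBS replicates 1 to 4. Both had their 2 highest values in G-CSF replicates 4 and 3, and neither passed (limma adjusted p = 0.517 for Cd34 and 0.583 for Flt3). Averaged over the 11 measured stem cell and sort markers, the G-CSF samples had 8.53 to 8.88 and the PBS samples 8.10 to 8.96. The part of cell composition in the Dntt values was not tested.

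Neutrophil markers were lower in the G-CSF samples with the most Dntt. Averaged over the 23 measured markers, G-CSF replicates 1 to 4 had 10.06, 10.04, 8.07 and 8.68, and PBS replicates 1 to 4 had 7.94, 6.94, 7.32 and 7.19. G-CSF replicates 1 and 2, with the most neutrophil marker signal, had the least Dntt of the G-CSF samples. The log2 fold change was above 0 for all 23 (median 1.82), and 0 passed over all genes (limma; 21 at an unadjusted p under 0.05). Without PBS replicate 3 the median was 1.71. Anxa1, an inhibitor of inflammation abundant in neutrophils, had 2.14 ± 0.34 SE (limma adjusted p = 0.0559), and Csf3r, the G-CSF receptor, had 1.29 ± 0.21 SE (limma adjusted p = 0.0585, and 0.0125 without PBS replicate 3). With the marker mean of each array as a covariate, the log2 fold change of Dntt was 5.05 ± 0.74 SE (limma adjusted p = 0.242), that of Satb1 1.58 (limma adjusted p = 0.788) and that of Notch1 0.87 (limma adjusted p = 0.985). The marker mean itself was higher in every G-CSF sample than in any PBS sample, so the covariate and the treatment overlap in this fit.

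**Figure D3:**
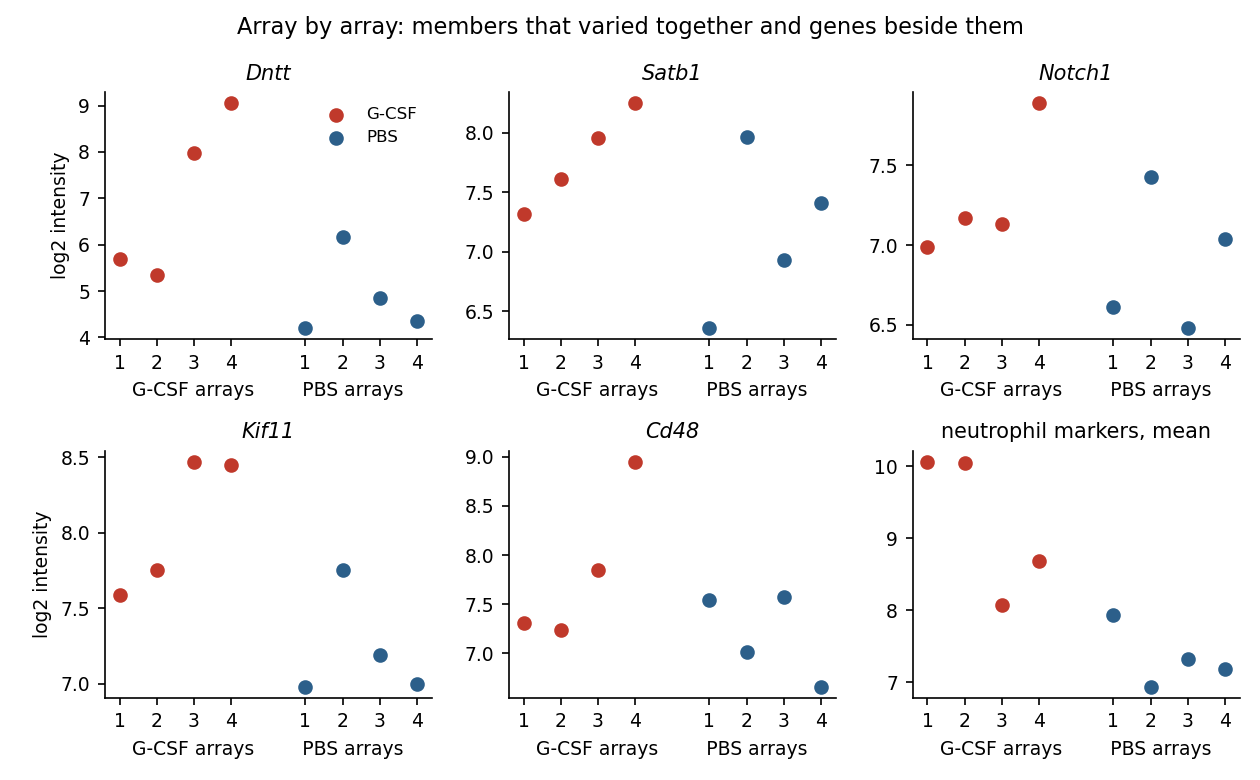
Log2 intensity (y axes, each with its own range) on G-CSF arrays 1 to 4 (red, left) and PBS arrays 1 to 4 (blue, right) for Dntt, Satb1, Notch1, Kif11, Cd48 and the mean of 23 neutrophil markers. Dntt is high in G-CSF replicates 3 and 4 (7.97 and 9.05), where the neutrophil mean is 8.07 and 8.68, and lower in replicates 1 and 2, where it is 10.06 and 10.04.

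Lists of genes around the 9 were read from the same fit. In this main fit of all 8 arrays, no gene of any list below passed over all genes (limma). At an unadjusted p under 0.05 (limma) the share over all genes was 9.01%. Among regulators and receptors that act with the 9 genes, 0 of 26 measured passed (5 at an unadjusted p under 0.05), with a median log2 fold change of 0.07, and -0.01 without PBS replicate 3. Spi1, the gene of PU.1, which balances myeloid and lymphoid fates by its dose, had 0.79 ± 0.27 SE (limma adjusted p = 0.442). Its values were 9.15, 9.03, 8.74 and 8.87 in G-CSF replicates 1 to 4, against 7.81, 7.78, 9.02 and 8.02 in PBS replicates 1 to 4. Without PBS replicate 3 it passed with 1.07 (limma adjusted p = 0.0371). With quantile normalization without PBS replicate 3 it had 1.03 and did not pass (limma adjusted p = 0.063). Ets1, a factor of lymphocyte development, had 0.53 ± 0.17 SE with the groups apart (limma adjusted p = 0.397).

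Genes expressed in lymphoid-primed progenitors had a median of 0.24 over 17 measured (0.29 without PBS replicate 3), with 0 passing (4 at an unadjusted p under 0.05). The 2 with the lowest p were Cd53, a tetraspanin of leukocytes, with 1.29 ± 0.21 SE (limma adjusted p = 0.0582, and 0.0371 without PBS replicate 3), and Cd52, a surface glycoprotein of leukocytes, with 1.44 ± 0.37 SE (limma adjusted p = 0.278). Neither is restricted to lymphoid cells. Cd53 was at 10.56, 10.82, 11.14 and 10.94 in G-CSF replicates 1 to 4, against 9.39, 9.80, 9.90 and 9.22 in PBS replicates 1 to 4, with the groups apart. With quantile normalization without PBS replicate 3, Cd53 did not pass (limma adjusted p = 0.0632). Cd52 was at 10.55, 11.01, 9.19 and 9.70 in G-CSF replicates 1 to 4, against 9.20, 8.78, 8.38 and 8.35 in PBS replicates 1 to 4, highest where the neutrophil markers were highest. With the neutrophil marker mean as a covariate, the log2 fold change was 1.71 for Cd53 (limma adjusted p = 0.399) and 0.00 for Cd52.

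The lists for the pathways of the 2 receptors, which are not limited to downstream genes, gave mixed values. Of the Notch pathway, 0 of 33 measured passed (5 at an unadjusted p under 0.05, 2 higher and 3 lower), with a median of 0.03, and 0.00 without PBS replicate 3. Hes1, the best known Notch target, was at 7.11, 6.29, 6.48 and 6.30 in G-CSF replicates 1 to 4, against 6.64, 7.88, 7.98 and 8.07 in PBS replicates 1 to 4. PBS replicates 2, 3 and 4 were above every G-CSF sample and PBS replicate 1 was not, and the log2 fold change was -1.10 ± 0.32 SE (limma adjusted p = 0.340), opposite in sign to the 0.40 of Notch1. Psenen, a subunit of gamma-secretase, which releases the active part of Notch, had 0.80 ± 0.20 SE with the groups apart (limma adjusted p = 0.243). Of the IL-7 receptor and STAT5 response, 0 of 16 passed (4 at an unadjusted p under 0.05), with a median of 0.19, and 0.13 without PBS replicate 3. Its leading genes, the kinases Pim2 with 1.02 ± 0.19 SE and Pim1 with 1.28 ± 0.26 SE (limma adjusted p = 0.0975 and 0.152), are also targets of STAT proteins downstream of the G-CSF receptor. Of the genes of V(D)J recombination and end joining, which act with or after the cut by RAG, 0 of 13 passed (1 at an unadjusted p under 0.05). Their median was 0.21, and -0.02 without PBS replicate 3. The 2 with the lowest p were Nhej1, an end joining factor, with 0.83 ± 0.26 SE (limma adjusted p = 0.388) and Xrcc6, the gene of Ku70, with 0.50 ± 0.23 SE (limma adjusted p = 0.551), and Xrcc6 had 0.28 without PBS replicate 3.

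Markers of committed lymphocytes had mostly negative differences, none of which passed. Most genes of the whole array were also negative, with 41.7% positive and a median of -0.07. Among 17 measured B cell markers the log2 fold change was positive for 3 and its median was -0.31, and 8 lay inside the olfactory band. Averaged over the 17, G-CSF replicates 1 to 4 had 5.49, 5.58, 5.32 and 5.23, and PBS replicates 1 to 4 had 5.57, 5.42, 5.84 and 5.65, lowest in the samples with the highest Dntt. The 2 with the lowest p were Bank1, a B cell scaffold, with -0.62 ± 0.25 SE and Igll1, the surrogate light chain of pre-B cells, with -0.47 ± 0.19 SE (limma adjusted p = 0.517 and 0.520). Of T cell markers, 1 of 18 was positive, Gata3 with 0.50 ± 0.26 SE (limma adjusted p = 0.572), a factor that stem cells also express, and the median was -0.23. Cd2, a T cell adhesion receptor, had -0.46 ± 0.24 SE (limma adjusted p = 0.570), and -0.26 without PBS replicate 3. NK and innate lymphoid cell markers had a median of -0.18, with 3 of 14 positive and 9 inside the olfactory band. The granzyme gene Gzma and the factor Zbtb16 had -0.76 ± 0.29 SE and -0.44 ± 0.18 SE (limma adjusted p = 0.505 and 0.517). Plasmacytoid dendritic cell markers, of cells that can also carry Dntt, had a median of -0.13 over 9 measured. Siglech was at 4.81 to 5.18 in G-CSF samples and 5.05 to 5.78 in PBS samples. Its log2 fold change was -0.36 ± 0.19 SE (limma adjusted p = 0.577), and -0.23 without PBS replicate 3. Irf8, a factor of plasmacytoid cells, had 0.35 ± 0.23 SE (limma adjusted p = 0.602). At an unadjusted p under 0.05 (limma) there were 3 B cell markers, 0 T cell markers, 2 NK markers and 0 plasmacytoid markers, against 9.01% of all genes. Of these markers 0 passed over all genes. The band of dim signal covers many of these markers, and without PBS replicate 3 the medians were -0.23 for B cells, -0.11 for T cells, -0.20 for NK cells and -0.05 for plasmacytoid cells.

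**Figure D4:**
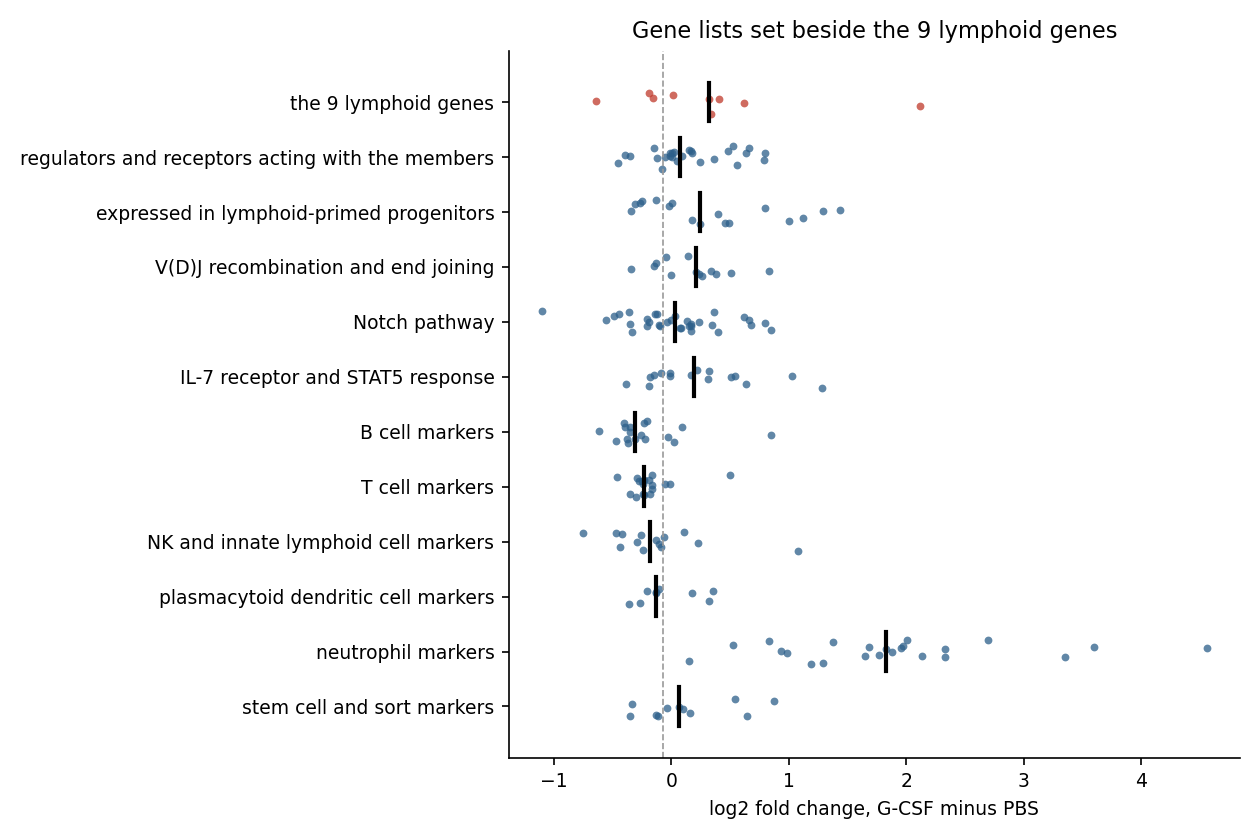
Log2 fold change, G-CSF minus PBS (x axis), of each measured gene (points) in the 9 lymphoid genes (red) and in each list set beside them (blue). Black bars are medians and the dashed line is the median of all genes (-0.07). The neutrophil markers have a median of 1.82, the 9 lymphoid genes 0.32 and the B cell markers -0.31.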

How the data were processed

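Per the labels' protocols, 8 sorted samples gave RNA through RNA XS columns, which was amplified by the NuGen Ovation system for MoGene 1.0 ST arrays. Each deposited column holds an intensity for every probe set of 1 sample. The submitters' processing notes name RMA, with software and version not given in the sources used here. The intensities ran from 2.15 to 16163, so they were read as linear, and log2 was taken.

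Of 35556 probe sets, 21789 had 1 gene symbol, 1621 several and 12146 none. For each gene the probe set with the highest mean was kept (19938 genes). The 2 groups were fitted on all genes by lmFit and eBayes of limma 3.58.1 (R 4.3.3, 2-sided), and p-values were adjusted by Benjamini-Hochberg over the 19938 genes, with 0.05 as the threshold. Exact permutation tests used scipy 1.17.1. The fit was also run on simulated data with independent noise of the same size on all arrays, which leaves out the compression of PBS replicate 3. The number of arrays limits the precision. The p-values measure the spread between pools.

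The 9 genes, the lists and the tests were chosen with earlier results of these data known. From each list the text names the 2 genes with the lowest p, and beside them the genes of the sort and the 3 genes most like any of the 9 that spanned 2 log2 units or more. Flt3, Cd27 and Jchain were chosen after their values were seen. Alternatives were other moderation, array weights, a replicate block, a filter on dim genes, other normalization and centring, the mean of probe sets, all probe sets, a pseudocount of 16, a neutrophil marker covariate and leaving out each array.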

Additional observations from a re-analysis of the deposited data

Results flagged for a closer look

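In groups of 4 arrays, the highest or lowest value was compared with the rest by its gap to the nearest value over the range of the group (Dixon's 95% critical value). Of 80 such groups, for the 9 lymphoid genes and the other genes named, 5 passed. By chance about 1 in 20 passes among independent groups of genes not chosen by their values. Many of the genes here were chosen by their values, Jchain among them, and all share the same 8 arrays. That rate is therefore only a guide. Pax5 in G-CSF replicate 1 was at 6.08, above 5.43 to 5.54 in the other G-CSF samples, with a gap of 0.83 of the range. Psenen in G-CSF replicate 2 was at 9.46, below 9.75 to 9.81 in the others. Hes1 in PBS replicate 1 was at 6.64, below 7.88 to 8.07 in the other PBS samples. Gata3 in PBS replicate 4 was at 7.65, above 6.63 to 6.76 in the others. Jchain in G-CSF replicate 4 was at 6.52, above 3.14 to 3.58 in the other G-CSF samples.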

How the results depend on the processing

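None of the 9 lymphoid genes passed the adjusted threshold in any of 19 alternatives, each of which tested 9 of them except the filter on dim genes. In the main fit 2 had an unadjusted p under 0.05 (limma), Dntt and Ebf1. Without PBS replicate 3 the unadjusted p was 0.0145 for Rag1, 0.0404 for Dntt and 0.0743 for Ebf1 (limma). The median of the 9 ran from 0.12 to 0.40, and from 0.12 to 0.35 when 1 array was left out. For the 4 genes kept by the filter on dim genes it was 0.51. Dntt ran from 1.44 to 5.05 (adjusted p 0.242 to 0.838), Satb1 from 0.35 to 1.58 and Ebf1 from -0.81 to -0.28. Il7r was 0.03 after quantile normalization and -0.27 to 0.01 when 1 array was left out, and Rag2 was then -0.09 to 0.12. Over all genes, 19 passed, with 23 under the replicate block, 40 with array weights, 10 after quantile normalization, and 0 both with all probe sets and with the neutrophil covariate (limma, 2743 and 912 at an unadjusted p under 0.05, against 1797). It was 10, 3, 31 and 7 without G-CSF replicate 1, 2, 3 and 4, the range over all arrays left out being 3 to 31. The replicate block changed no call for the 9 genes. Deviations of same-numbered G-CSF and PBS samples had correlations of -0.025, 0.056, 0.062 and 0.135, and those of other pairs ran from -0.223 to 0.275. Such correlations cannot show whether same-numbered samples were handled together. Cd53 passed with 4 alternatives, among them array weights (adjusted p 0.00906). Of the other genes, Cd52 was 0.00 with the neutrophil covariate. Slamf1 was -0.04 with array weights, -0.56 with the covariate, -0.07 with quantile normalization without PBS replicate 3, and -0.07 to 0.40 when 1 array was left out. Itga2b was -0.01 after quantile normalization, -0.35 with the covariate, -0.04 with quantile normalization without PBS replicate 3, and -0.01 to 0.21 when 1 array was left out. Jchain was -0.29 to 0.84 then. The causes were not tested. Dim signal limits what can be said of Rag1, Rag2, Il7r, Ebf1 and the PBS level of Dntt.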

Other observations

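Jchain, the joining chain of polymeric antibodies, which marks plasma cells and some early lymphoid progenitors, was at 3.14, 3.58, 3.50 and 6.52 in G-CSF replicates 1 to 4, against 3.09, 3.76, 4.21 and 3.74 in PBS replicates 1 to 4. G-CSF replicate 4 was also the highest of the 8 samples for Dntt (9.05), Satb1 (8.25), Notch1 (7.89), Cd48 (8.95), Flt3 (9.43), Cd34 (10.98) and Tespa1 (7.01). It was the lowest of the 8 for Rag2 (3.04) and Ebf1 (3.94), both dim, and the lowest of the G-CSF samples for Rag1 (4.03). For Il7r (4.21), Ikzf1 (9.15) and Pax5 (5.50) it was neither the highest nor the lowest. Tespa1 was named for its likeness to Dntt, and Flt3 and Jchain were chosen after their values were seen. Their high values in this sample were therefore part of the choice. Cd53 was highest in G-CSF replicate 3 (11.14) and Cd52 in G-CSF replicate 2 (11.01). In G-CSF replicate 4 the mean of the B cell markers was at its lowest, 5.23. Cd27, a receptor of multipotent and lymphoid-primed progenitors, was at 9.17, 9.48, 9.92 and 10.04 in G-CSF replicates 1 to 4, against 9.0, 8.77, 7.31 and 9.55 in PBS replicates 1 to 4. Cd27 and Jchain did not pass the test (limma adjusted p = 0.520 and 0.741). The log2 fold change of Cd27 was 1.0, and 0.55 without PBS replicate 3. The part of cells outside the gate in these values was not tested.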
